A study of Bos taurus with 106 samples.

Results

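Transcripts of 6 genes of peroxide and redox defence, GPX3, CAT, PRDX4, GLRX, CCS and PRXL2A, were followed in cow liver from the end of one lactation into the next. The genes were taken by their symbols in the gene table of the array, and each was carried by 1 element, so that 6 of the 4452 distinct genes named on the array are described. The samples came from 8 Holstein dairy cows, and the study compared planes of nutrition before calving. All cows were given a moderate-energy diet of 1.60 Mcal/kg through a dry period of 65 days. In 4 cows, called restricted, feed was limited so that intake came to about 80% of the NRC requirement, and 4 cows ate ad libitum and took in about 120%. The liver samples represent 7 days counted from calving, namely days -65, -30, -14, 1, 14, 28 and 49, with 53 cow-days in all. Most days had 8 cows, day -65 had 7 and day 49 had 6. The missing samples were all from the ad libitum group, which had 3 cows on day -65 and 2 on day 49. The sources used here give neither the ages of the cows nor their feeding after calving. Each value is a log2 ratio of liver over a reference RNA pooled from tissues other than liver, centred on the median of its array and averaged over both dye orientations of a cow-day. Such a ratio says how liver compared with the reference for 1 gene, and it does not rank genes by abundance.

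Hydrogen peroxide arises in liver from peroxisomal and mitochondrial oxidation of fatty acids and from oxidative protein folding, and it is removed by catalase, glutathione peroxidases and peroxiredoxins. Glutaredoxins and thioredoxins return oxidised protein thiols to the reduced state. Around calving a dairy cow mobilises body fat, and the liver takes up and oxidises large amounts of fatty acids. GPX3 encodes the secreted, selenium-containing glutathione peroxidase of plasma. CAT encodes catalase, the heme enzyme of peroxisomes. PRDX4 encodes the peroxiredoxin of the endoplasmic reticulum, which passes oxidising equivalents to protein disulfide isomerases. GLRX encodes the cytosolic glutaredoxin, which removes glutathione from protein thiols. CCS encodes the chaperone that delivers copper to superoxide dismutase SOD1, the enzyme that forms hydrogen peroxide from superoxide. PRXL2A encodes a protein with a peroxiredoxin-like fold that has been described as an antioxidant regulator.

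Array quality differed between the days and bears on each result below. The correlation over elements between both orientations of a cow-day averaged 0.734, 0.739, 0.715 and 0.751 on days -65, -30, 28 and 49, and 0.560, 0.485 and 0.525 on days -14, 1 and 14. It was lower in ad libitum than in restricted cows on day -14 (0.495 and 0.625), on day 1 (0.378 and 0.592) and on day 14 (0.449 and 0.601). The 4 lowest cow-days were ad libitum cows 6886 on days -14 (0.261) and 1 (0.0839), 7050 on day 14 (0.261) and 7161 on day 1 (0.285). Of the hepatocyte markers, 3 of 22 were on the array (APOA1, TF and RBP4). Their mean ratio was 4.39, 4.12, 3.57, 3.48, 3.67, 4.25 and 4.07 over the 7 days. TF and RBP4 passed downward from day -30 to day -14 (-0.76 and -0.45). From day -14 to day 1 none of them passed, with differences of 0.39 for APOA1, -0.14 for TF and -0.51 for RBP4. Markers of other liver cells moved as well. From day -30 to day -14, a step in which 33.5% of all elements passed (19.5% upward and 14% downward), 3 of 5 stellate cell markers rose. Among them was COL3A1, by 1.84 ± 0.50 (SE, adjusted p = 0.00455). Of 6 endothelial markers 1 rose and 2 fell, among them KDR by -1.48 ± 0.23 (SE, adjusted p = 5.19e-06), and of 10 macrophage markers 2 rose and 3 fell. The endothelial marker that rose was PECAM1, and its other element passed in the opposite direction. None of these stellate, endothelial and macrophage markers passed from day -14 to day 1. The neutrophil marker S100A12 did pass in that step, with a rise of 0.87 ± 0.20 (SE, adjusted p = 0.035). In ad libitum cows on day -14, CD14 of 10 macrophage markers, CD3D and CD3E of 5 T and NK cell markers, and PECAM1 and ENG of 6 endothelial markers were lower, by -1.05, -0.96, -0.99, -0.68 and -0.70. No other marker of these lists passed. CD163 (0.48), GNLY (0.11), KDR (0.08) and LYVE1 (0.03) had the opposite sign, and the rest had the same sign. On that day 6.08% of all elements passed between diets. The bile duct markers SPP1 and EPCAM, of 3 measured, were higher in ad libitum cows by 1.26 and 0.84 on day 1 and by 1.22 and 1.08 on day 14, and SPP1 by 0.96 on day -14. Over all elements, 10.7% passed on day 1 and 15.3% on day 14. The third bile duct marker, KRT19, went the other way without passing, by -0.42, -0.38 and -0.37 on days -14, 1 and 14. The mean ratio over the 3 genes on day 14 ranged from -1.13 to -0.11 in restricted and from -0.26 to -0.10 in ad libitum cows. Of 10 macrophage markers on day 14, CD163 was higher in ad libitum cows by 1.26, and CD14 and C1QC differed by -1.16 and -0.98. CD3E of the T and NK cell markers differed by -0.76 on that day. After scaling to a common spread no marker of these lists passed between diets on day -14, while 2 of the 3 bile duct markers were higher on days 1 and 14, and without centring on day 14 alone. No erythroid marker of 13 and no adipocyte marker of 6 was measured. The part of array agreement and of cell makeup in the results was not tested.

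GPX3, CAT and PRDX4 changed over the 7 days, and GLRX, CCS and PRXL2A did not pass that test. The limma F test over days gave adjusted p = 6.89e-05 for GPX3, 0.00215 for CAT and 1.49e-09 for PRDX4. It gave 0.386 for GLRX, 0.162 for CCS and 0.494 for PRXL2A. Among all 8061 elements tested, 43.4% passed, so 3 of 6 genes is a share near the background of this array. In whole liver, a change in the cells that hold a transcript and a change in transcript per cell cannot be told apart.

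GPX3 was highest on the day after calving. Its log2 ratio had a lowest, median and highest value of -0.13, 0.83 and 5.72 in the 7 cows on day -65, of -0.09, 0.79 and 4.23 in the 8 cows on day -30, and of -0.38, 1.56 and 6.13 on day -14. On day 1 these values were 2.49, 5.62 and 6.16. They were 0.58, 3.07 and 4.50 on day 14, 0.98, 3.04 and 5.33 on day 28, and 0.28, 1.93 and 3.82 in the 6 cows on day 49. The days overlapped, because single cows were high early, restricted cow 6877 with 6.13 on day -14, restricted cow 7105 with 4.23 and 4.34 on days -30 and -14, and ad libitum cow 6886 with 5.72 on day -65.

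From day -14 to day 1, GPX3 rose by 2.98 ± 0.66 (SE, n = 8 cows) on the log2 scale, or 7.90-fold, with a higher ratio in 7 of 8 cows (adjusted p = 0.031). Cow 6877 was the exception, with 6.13 before and 5.84 after calving. From day 1 to day 14 the ratio was lower in 8 of 8 cows, by -2.09 ± 0.66 (SE), which did not pass (adjusted p = 0.177). The rise at calving passed without cow 6877 (3.47 ± 0.70, adjusted p = 0.00619), and it did not pass without cow 6952, 7045, 7050, 7105 or 7161, with adjusted p = 0.135, 0.169, 0.147, 0.125 and 0.143 and rises of 2.58 to 3.11. It did not pass with liver in Cy3 alone. GPX3 with liver in Cy5 minus that in Cy3 was -0.72 ± 0.51 (SD, n = 8) on day -14 and 0.53 ± 1.34 on day 1. Ad libitum cow 6886 on day 1 had 2.98 in Cy3 and 6.19 in Cy5. The part of this difference in the rise was not tested. S100A12, the single neutrophil marker measured of 11, moved over the same days, with mean ratios of 0.96, 1.93, 2.80 and 1.95 on days -30, -14, 1 and 14. Each of these steps of S100A12 passed in limma, with differences of 0.97, 0.87 and -0.85 (adjusted p = 0.000274, 0.035 and 0.0265). The first of them did not pass for GPX3 (0.99, adjusted p = 0.253). From day 14 to day 28 S100A12 changed by a further -0.74 (adjusted p = 0.0134), to a mean of 1.21. GPX3 changed by -0.01 in that step (adjusted p = 0.993), to a mean of 3.04. The part of neutrophils in the GPX3 values was not tested.

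Cows of the same diet and day differed more in GPX3 than in any other element of the array. The SD within the 14 diet-by-day groups was 1.41, the highest of 8061 elements, against a median of 0.32 over all elements. That spread was shared by both dye orientations, whose GPX3 values correlated at r = 0.927 over the 53 cow-days, as a description. It was also uneven: the restricted cows on day 1 had 5.84, 6.02, 6.02 and 6.16, with an SD of 0.13, while on day -14 the same cows had 6.13, 1.40, 1.71 and 4.34, with an SD of 2.25.

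CAT took the opposite course at calving. Its lowest, median and highest ratios were 5.51, 5.64 and 6.02 on day -65, 4.88, 5.23 and 5.76 on day -30, and 4.67, 5.76 and 6.20 on day -14. On day 1 they were 4.07, 4.78 and 5.33, the lowest median of the 7 days. They were 4.88, 5.38 and 6.14 on day 14, 4.66, 5.47 and 5.94 on day 28, and 4.76, 5.22 and 5.47 on day 49. Catalase was far higher in liver than in the reference throughout, with a mean ratio of 5.34 over all cow-days, and 19 of 8061 elements had a higher one.

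CAT fell by 0.83 ± 0.19 (SE, n = 8 cows) from day -14 to day 1, to 0.563 times its earlier value, and was lower in 6 of 8 cows (adjusted p = 0.0334). The exceptions were restricted cows 6877 (5.16 and 5.33) and 7105 (4.67 and 4.90), the cows with the highest GPX3 on day -14. By day 14 the CAT ratio was higher in 8 of 8 cows, with a difference of 0.69 ± 0.19 (SE) that did not pass (adjusted p = 0.0725). The fall did not pass without cow 6886, 6952, 7045, 7050, 7161 or 7187, with adjusted p = 0.108, 0.132, 0.193, 0.0722, 0.0892 and 0.113. After scaling the arrays to a common spread the difference was -0.57 (adjusted p = 0.875), and after quantile normalization it was -0.53 (adjusted p = 0.443). The fall did not pass with liver in Cy3 alone. CAT with liver in Cy5 minus that in Cy3 was 0.67 ± 0.37 (SD, n = 8) on day -14 and 0.10 ± 0.94 on day 1. Over all cow-days the CAT values of both orientations correlated at r = 0.446, the lowest of the 6 genes, as a description. The part of the dye orientation in the fall was not tested.

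PRDX4 rose over 2 steps before and at calving and then fell. The lowest, median and highest ratios were -1.44, -1.16 and -0.65 on day -65, -1.36, -1.15 and -0.84 on day -30, and -1.17, -0.60 and 1.08 on day -14. On day 1 they were -0.37, 0.12 and 1.11. On days 14, 28 and 49 they were -1.0, -0.61 and -0.18, then -1.25, -1.01 and -0.53, then -1.36, -1.26 and -0.94. Every cow on day 1 was above every cow on days -65, -30, 28 and 49, while day 1 overlapped with days -14 and 14.

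The first PRDX4 rise, from day -30 to day -14, was 0.66 ± 0.16 (SE, n = 8 cows), or 1.58-fold, and was seen in 8 of 8 cows (adjusted p = 0.00131). The second, from day -14 to day 1, was 0.71 ± 0.16 (SE), or 1.64-fold, in 7 of 8 cows (adjusted p = 0.031). Cow 6877 was again the exception, with 1.08 on day -14 and -0.04 on day 1. From day 1 to day 14 PRDX4 fell by 0.86 ± 0.16 (SE) in 8 of 8 cows (adjusted p = 0.00387), and the next steps of -0.38 and -0.22 did not pass (adjusted p = 0.136 and 0.777). These steps share samples and are not independent of each other.

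Leaving out cow 6877 gave a first PRDX4 rise of 0.50 ± 0.12 (SE, adjusted p = 0.000924) and a second of 1.00 ± 0.12 (SE, adjusted p = 2.15e-06). The first rise passed under each of 23 alternative settings, with values of 0.50 to 1.08. The second did not pass without cow 6886, 6952, 7045, 7050, 7105 or 7161, with adjusted p = 0.152, 0.148, 0.179, 0.169, 0.195 and 0.0892. The difference between PRDX4 values of both dye orientations was 0.95 ± 0.61 (SD, n = 8) on day 1 and between 0.27 and 0.57 on the other days, and its part in the result was not tested.

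**Figure D1:**
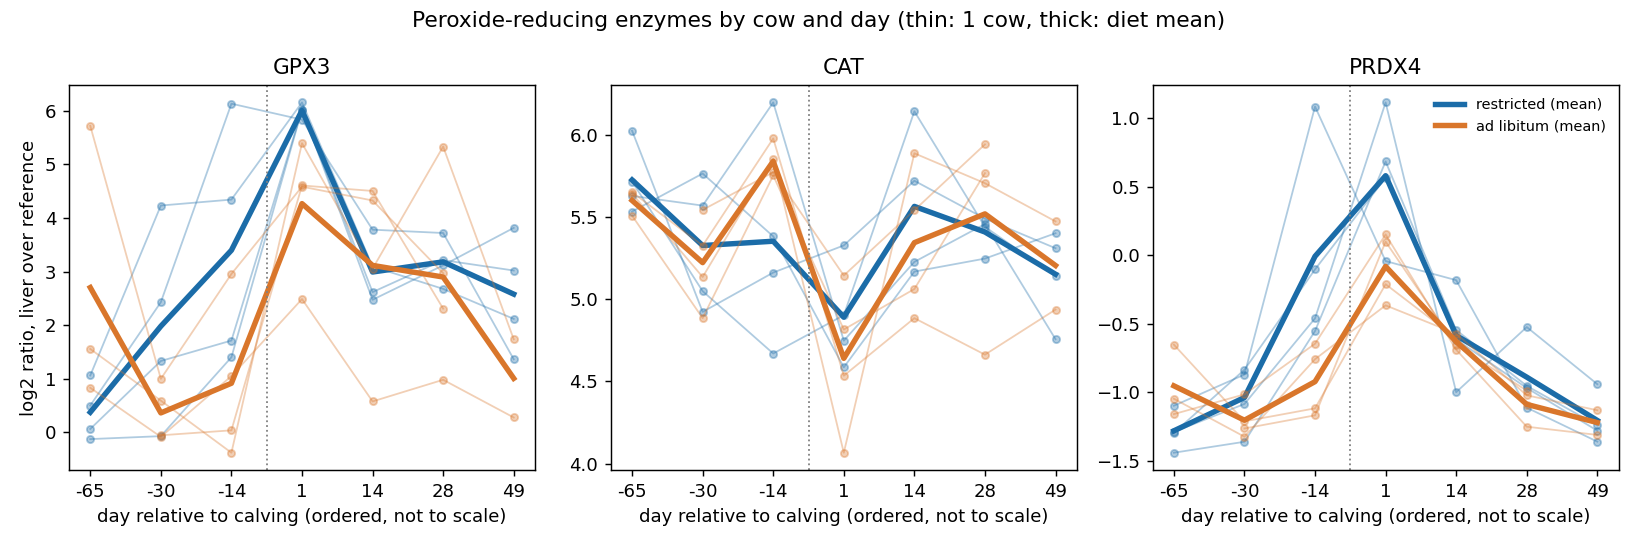
Log2 ratio of liver over reference (vertical axis, own scale in each panel) for GPX3, CAT and PRDX4 on the 7 sampling days (horizontal axis, dotted line: calving). Points and thin lines are single cows, thick lines the means of restricted (blue) and ad libitum (orange) cows; GPX3 and PRDX4 peaked on day 1, with medians of 5.62 and 0.12, where CAT had its lowest median, 4.78.

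GLRX stayed near the reference on the outer days and spread widely around calving. The lowest, median and highest ratios were -0.06, 0.14 and 0.65 on day -65, -0.23, 0.19 and 0.40 on day -30, -1.37, -0.18 and 0.99 on day -14, and -1.03, 0.18 and 0.57 on day 1. They were -0.81, 0.22 and 0.55 on day 14, -0.09, 0.09 and 0.52 on day 28, and 0.28, 0.39 and 0.53 on day 49. None of the 6 steps passed. The SD over cows was 0.72, 0.53 and 0.55 on days -14, 1 and 14 and between 0.08 and 0.23 on the other days.

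The days on which GLRX spread were also the days on which its dye orientations differed. With liver in Cy5 the ratio exceeded that with liver in Cy3 by 0.86 ± 0.39 (SD, n = 8) on day -14, 1.04 ± 0.45 on day 1 and 0.83 ± 0.51 on day 14. On days -65, -30, 28 and 49 the difference lay between -0.03 and 0.23. The GLRX course depended on cow 6877. Without this cow, whose day -14 value was the highest of the 53 at 0.99, GLRX passed the F test over days (adjusted p = 0.00767) and fell by 0.51 from day -30 to day -14 (adjusted p = 0.0104). With liver in Cy3 alone, GLRX passed as well, with a step of -0.73 from day -30 to day -14 (adjusted p = 0.00611).

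CCS varied little over the days. Its medians were 0.72, 0.80, 0.36, 0.45, 0.54, 0.75 and 0.46 on days -65, -30, -14, 1, 14, 28 and 49, with lowest and highest single values of -0.18 and 1.37, both on day -14. No step passed. From day 28 to day 49 it was lower in 6 of 6 cows, by -0.34 ± 0.16 (SE, adjusted p = 0.683). CCS passed the F test over days without cow 6952 (adjusted p = 0.0307) and after scaling to a common spread (adjusted p = 0.0224).

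PRXL2A was above the reference in each of the 53 cow-days, with medians of 2.20, 1.85, 2.25, 2.09, 2.16, 2.42 and 2.41 over the 7 days. The lowest value was 0.69, in restricted cow 6952 on day -14, and the highest was 3.07, in ad libitum cow 7161 on the same day. Its steps ranged from -0.27 to 0.32 and none passed. Like GLRX, it gave higher values with liver in Cy5 on days -14, 1 and 14, by 0.96, 0.94 and 0.67, against 0.12 to 0.56 on the other days.

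**Figure D2:**
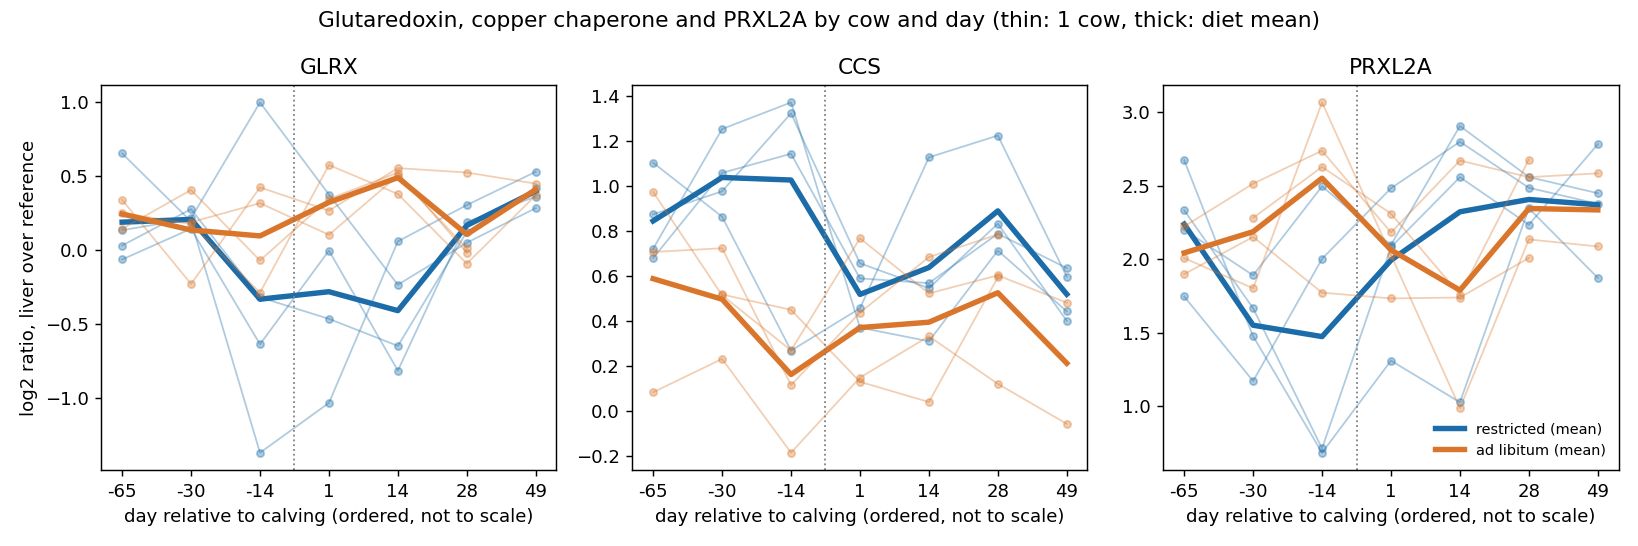
Log2 ratio of liver over reference (vertical axis, own scale in each panel) for GLRX, CCS and PRXL2A on the 7 sampling days (horizontal axis, dotted line: calving). Points and thin lines are single cows, thick lines diet means; the GLRX values spread from -1.37 to 0.99 on day -14 and from 0.28 to 0.53 on day 49.

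The changes passed in 3 of the 6 steps between neighbouring days. From day -14 to day 1, 3 of the 6 genes passed, GPX3 and PRDX4 upward and CAT downward, where 32 elements of the whole array (0.397%) passed, 24 upward and 8 downward. From day -30 to day -14, 1 of 6 passed (PRDX4, upward) against 33.5% of all elements, below that background. From day 1 to day 14, 1 of 6 passed (PRDX4, downward) against 0.707%. The 6 genes were chosen with earlier results of these data known, so these shares do not test the group.

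No gene of the 6 passed in limma in the other steps, although in each of them 1 of the 6 had an unadjusted p under 0.05. From day -65 to day -30 this was CAT (-0.39 ± 0.19, adjusted p = 0.644), where 0.112% of all elements passed. From day 14 to day 28 it was PRDX4, where 8.62% of all elements passed. From day 28 to day 49 it was CCS, where 0.0124% passed. The step from day 14 to day 28 changed with the scaling: PRDX4 passed without centring (-0.85), after scaling to a common spread (-0.61) and after quantile normalization (-0.55), and CAT (1.34) and PRXL2A (0.83) passed after scaling to a common spread.

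**Figure D3:**
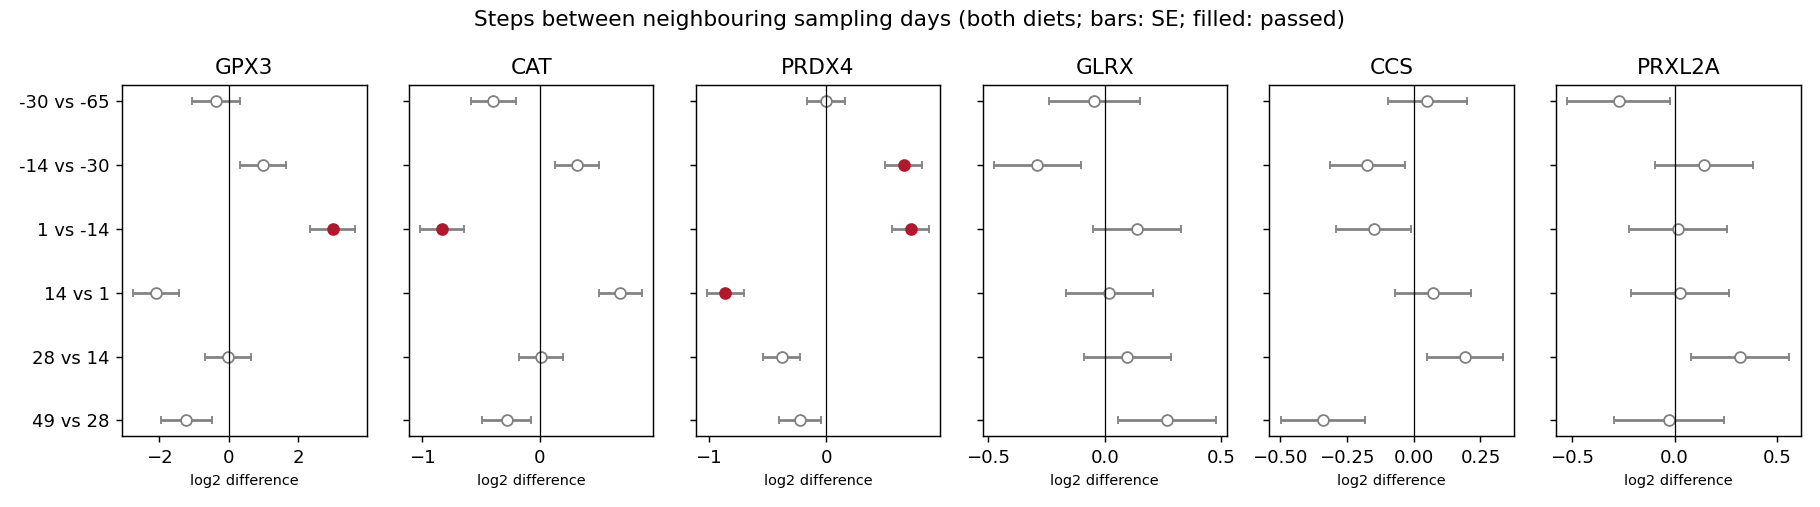
Log2 difference (horizontal axis, own scale in each panel, bars: SE) of each gene over the 6 steps between neighbouring sampling days (vertical axis), both diets weighted equally. Filled red points passed at an adjusted p under 0.05; they are 3 genes for day 1 against day -14 (GPX3 2.98, CAT -0.83, PRDX4 0.71) and PRDX4 for day -14 against day -30 (0.66) and day 14 against day 1 (-0.86).

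Feeding level was compared within each day, in different cows. Differences passed on days -14, 1 and 14, the days of lower array agreement. On day -14, 3 of 6 genes passed, against 6.08% of all elements, with PRDX4 and CCS lower and PRXL2A higher in ad libitum cows. On day 1, 1 of 6 passed (PRDX4, lower) against 10.7%, and on day 14, 1 of 6 passed (GLRX, higher) against 15.3%. As for the steps, these shares do not test the group, because the genes were chosen with earlier results known.

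PRDX4 on day -14 was 1.08, -0.46, -0.55 and -0.10 in the restricted cows and -1.12, -1.17, -0.65 and -0.76 in the ad libitum cows. The groups did not overlap, and the difference was -0.91 ± 0.22 (SE, adjusted p = 0.0118). Without cow 6877, the highest of the restricted cows, it was -0.55 ± 0.17 (SE, adjusted p = 0.0153). The difference did not pass without cow 6886, 7050 or 7105, with adjusted p = 0.0704, 0.0958 and 0.0581.

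On day 1 PRDX4 was -0.04, 1.11, 0.68 and 0.56 in restricted cows and -0.21, 0.10, 0.15 and -0.37 in ad libitum cows. The groups overlapped through cow 6877 alone, and the difference was -0.66 ± 0.22 (SE, adjusted p = 0.0462). It passed without cow 6877 (-0.87, adjusted p = 0.000415) and lost the call without each of the other 7 cows in turn, with adjusted p of 0.144 for 6886, 0.231 for 6952, 0.121 for 7045, 0.0647 for 7050, 0.102 for 7105, 0.0908 for 7161 and 0.191 for 7187.

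CCS on day -14 was 1.32, 0.27, 1.14 and 1.37 in restricted cows and 0.12, 0.45, -0.18 and 0.27 in ad libitum cows. Restricted cow 6952 lay among the ad libitum cows, and the other 3 lay above them. The difference was -0.86 ± 0.20 (SE, adjusted p = 0.00936), and it did not pass without cow 6886 (adjusted p = 0.0502) or 7105 (adjusted p = 0.0698). CCS was also separate on day -30, with 0.98, 0.87, 1.06 and 1.25 in restricted and 0.72, 0.52, 0.23 and 0.52 in ad libitum cows. That difference of -0.54 ± 0.20 (SE) did not pass (adjusted p = 0.999), and no element of the array did on day -30. The sign was the same on all 7 days, with differences of -0.26 on day -65 and of -0.15, -0.24, -0.36 and -0.30 on days 1, 14, 28 and 49. None of these passed.

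PRXL2A on day -14 was 2.00, 0.69, 2.50 and 0.71 in restricted cows and 1.77, 2.63, 3.07 and 2.74 in ad libitum cows. The 2 low restricted cows, 6952 and 7105, set the groups apart, and the others overlapped. The difference was 1.08 ± 0.34 (SE), with an adjusted p of 0.0496. Without cow 6886, 6952, 7050, 7105, 7161 or 7187 the adjusted p was 0.059, 0.132, 0.184, 0.264, 0.147 and 0.0949, and with cow-days treated as independent, without the cow as a block, it was 0.0528.

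GLRX on day 14 was -0.23, 0.06, -0.65 and -0.81 in restricted cows and 0.52, 0.50, 0.55 and 0.38 in ad libitum cows. The groups did not overlap, and the ad libitum cows lay close together. The difference in log2 ratio was 0.90 ± 0.27 (SE, adjusted p = 0.0164). On this day the 2 orientations of the GLRX element differed by 0.83 ± 0.51 (SD, n = 8), and over all cow-days its ratio correlated above 0.9 with 266 of 5261 named elements, so how far the value reflects GLRX transcript was not tested. It did not pass without cow 6886, 7045, 7105 or 7161, with adjusted p = 0.0585, 0.0913, 0.108 and 0.0501. Without cow 6877, GLRX was also higher in ad libitum cows on day -14 (0.87, adjusted p = 0.00542) and on day 1 (0.82, adjusted p = 0.00862).

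GPX3 was higher in restricted cows on day 1 without passing. The restricted cows had 5.84, 6.02, 6.02 and 6.16 and the ad libitum cows 4.58, 4.61, 5.40 and 2.49, so the groups did not overlap. The difference was -1.74 ± 0.94 (SE, adjusted p = 0.281), with an SE from the 1 spread shared by all 14 groups. On day -14 it was -2.48 ± 0.94 (SE, adjusted p = 0.099), with overlapping groups. CAT did not pass on any day, with differences from -0.25 to 0.49, and passed on day -14 after quantile normalization (1.11, adjusted p = 0.032).

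On days -65, -30, 28 and 49 none of the 6 genes passed in limma, and the share of all elements was 0% on each of these days. An unadjusted p under 0.05 was reached by 285, 77, 93 and 48 elements on these days, among them GPX3 on day -65 (2.33 ± 1.02) and CCS on day -30. The test of whether the course over days differed between diets passed for 0.794% of all elements and for none of the 6 genes. Its lowest adjusted p among them was 0.136, for PRDX4, and an unadjusted p under 0.05 was reached by PRDX4, GPX3 and PRXL2A. Without cow 6877 it passed for PRDX4 (adjusted p = 0.00527) and GLRX (0.0144), and without cow 6952 for PRDX4 (0.0434) and CCS (0.028).

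**Figure D4:**
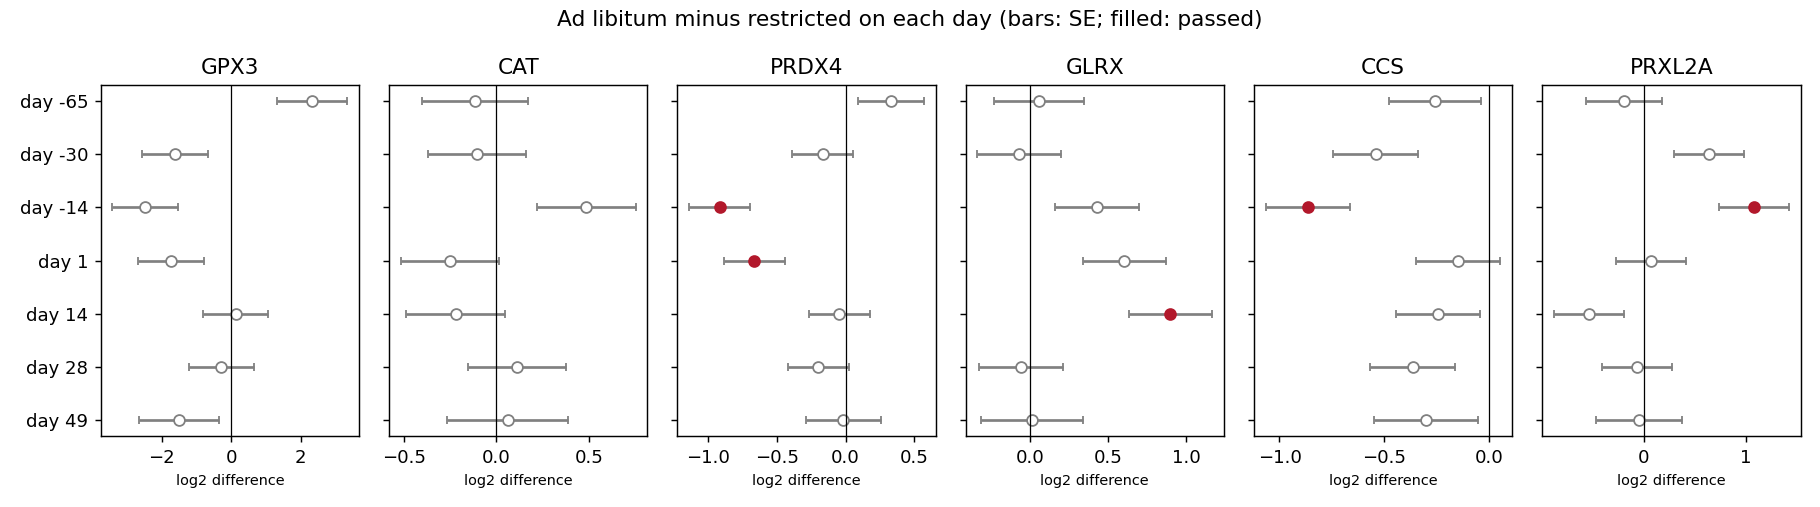
Log2 difference, ad libitum minus restricted (horizontal axis, own scale in each panel, bars: SE), of each gene on the 7 sampling days (vertical axis). Filled red points passed at an adjusted p under 0.05; they fall on day -14 (PRDX4 -0.91, CCS -0.86, PRXL2A 1.08), day 1 (PRDX4 -0.66) and day 14 (GLRX 0.90).

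Other enzymes of peroxide, superoxide and thiol reduction were measured for 20 of 38 listed genes, and 10 of the 20 changed over days (50.0%, against 43.4% of all elements). From day -30 to day -14, 6 rose and 1 fell, a share near the 33.5% of all elements that passed in this step, with a list median of 0.32 against 0.06 over all elements. Without centring 13 rose and none fell. The cytosolic peroxiredoxins PRDX1 and PRDX2 rose by 0.65 ± 0.14 (SE, adjusted p = 0.000458) and 0.59 ± 0.11 (SE, adjusted p = 9.54e-05). Thioredoxin TXN rose by 0.72 ± 0.18 (SE, adjusted p = 0.00212), and PRDX5, TXN2 and PRXL2B rose by 0.49, 0.40 and 0.53. SOD2, the mitochondrial superoxide dismutase, fell by 0.86 ± 0.20 (SE, adjusted p = 0.000846), but the other element of SOD2 passed in the opposite direction.

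From day -14 to day 1, where GPX3, CAT and PRDX4 passed, none of these 20 genes did, with a list median of 0.11 against 0.00356 over all elements. TXN had a difference of 0.57 ± 0.18 (SE, adjusted p = 0.182), GPX4, the phospholipid glutathione peroxidase, 0.40 ± 0.14 (SE, adjusted p = 0.25) and the methionine sulfoxide reductase MSRA -0.50 ± 0.17 (SE, adjusted p = 0.223). From day 14 to day 28, SOD2 rose by 0.67 (adjusted p = 0.0213), 1 of 20 where 8.62% of all elements passed. Between diets, where 10.7% and 15.3% of all elements passed on days 1 and 14, PRDX2 was higher in ad libitum cows on day 1 (0.52, adjusted p = 0.0274) and day 14 (0.74, adjusted p = 0.0035), and MSRA was lower on day 14 (-0.70, adjusted p = 0.0381).

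**Figure D5:**
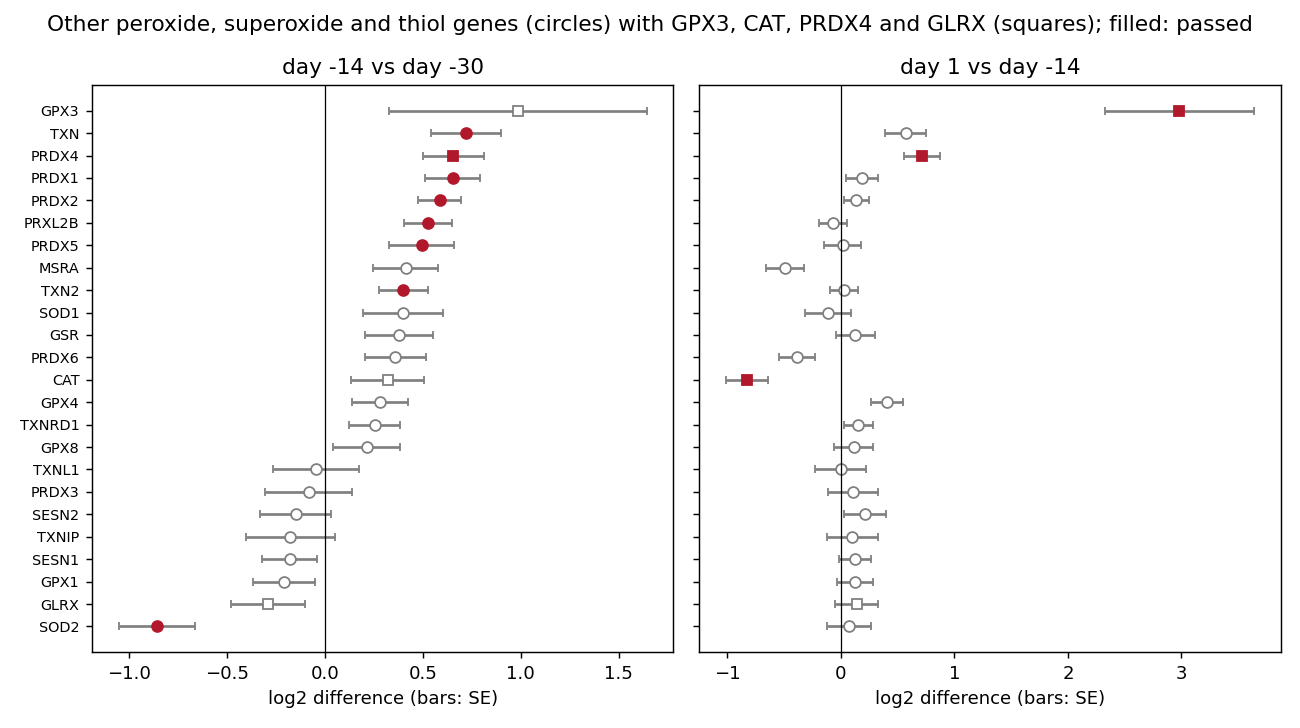
Log2 difference (horizontal axis, own scale in each panel, bars: SE) for day -14 against day -30 (left) and day 1 against day -14 (right) of the 20 other peroxide, superoxide and thiol genes (circles) and of GPX3, CAT, PRDX4 and GLRX (squares), ordered by the left panel. Filled red points passed at an adjusted p under 0.05. On the left these are 7 circles and the square of PRDX4. On the right they are the squares of GPX3, PRDX4 and CAT, and no circle.

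Genes of oxidative folding and entry into the endoplasmic reticulum, the compartment of PRDX4, were measured for 27 of 49 listed genes. From day -30 to day -14, 9 rose and none fell, so that 33.3% of the list passed against 33.5% of all elements, of which 19.5% rose. They included the translocon subunit SSR3 (0.90 ± 0.15, SE) and the disulfide isomerases TXNDC5 (0.80 ± 0.14, SE) and P4HB (0.69 ± 0.16, SE). From day -14 to day 1, 2 rose (7.41%, against 0.397% of all elements passing), SSR3 by 0.97 ± 0.15 (SE, adjusted p = 0.000574) and the chaperone DNAJB11 by 0.86 ± 0.20 (SE, adjusted p = 0.035), and the list median was 0.32 against 0.00356. Without centring none of the 27 passed in this step, and after either other scaling 1 did. From day 1 to day 14, 4 fell (14.8%, against 0.707% passing), SSR1, SSR2, SSR3 and DNAJB11, and the list median was -0.38 against -0.01. In ad libitum cows, 5 were lower on day -14 (18.5%, against 6.08% of all elements passing and 5.14% lower) and 7 on day 1 (25.9%, against 10.7% passing and 1.91% lower), with P4HB lower by -1.02 ± 0.23 and -0.70 ± 0.23 (SE). Without centring these 2 counts were 0 and 0. On day 14, 3 were higher (11.1%, against 15.3% passing and 11.6% higher). The genes were listed with earlier results of these data known.

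The lists around the other genes held few measured genes. Selenoproteins and selenium handling, the group of GPX3, were measured for 8 of 30 genes: from day -30 to day -14 the selenium carrier SELENOP fell by 0.86 ± 0.17 (SE, adjusted p = 0.0002), SELENOW and SELENOS rose by 0.36 and 0.52 (3 of 8 genes, where 33.5% of all elements passed), and from day -14 to day 1 none of the 8 passed. Peroxisome genes, the group of CAT, were measured for 15 of 56. None of them passed from day -14 to day 1, with a list median of -0.0070. From day -30 to day -14, 2 rose and 3 fell (6 and 1 without centring), or 33.3% against 33.5% of all elements, the steepest being the fatty acid transporter SLC27A2 (-1.40 ± 0.26, SE, adjusted p = 6.36e-05).

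Copper genes, the group of CCS, were measured for 6 of 20. ATOX1, the copper chaperone of the secretory pathway, rose by 0.55 ± 0.15 (SE, adjusted p = 0.00442) from day -30 to day -14, as did COX17 (0.38) and CP (0.87), while STEAP4 fell by 0.95. These are 4 of 6 genes, where 33.5% of all elements passed, and CP had the opposite sign after scaling to a common spread. On day -14, when CCS was lower in ad libitum cows, none of the 6 differed at the threshold, with a median of -0.02. Glutathione genes, the partners of GLRX, were measured for 10 of 33, and on day 14, when GLRX was higher in ad libitum cows, 1 was lower (15.3% of all elements passed on that day), GGT1 by -0.88 ± 0.19 (SE, adjusted p = 0.00382). Regulators and targets of NRF2, measured for 15 of 25, had 4 upward calls and 1 downward from day -30 to day -14 (12 and 0 without centring), or 33.3% against 33.5% of all elements, and none from day -14 to day 1, with a list median of -0.08.

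The genes whose ratios ran most like each of the 6 were sought among 5261 named elements with values in all 53 cow-days, as a description, since cow-days share animals, days and array quality. GPX3 ran most like SSR3 (r = 0.744), WWC3 (0.738) and PRDX4 (0.709). PRDX4 ran most like SSR3 (0.906) and the oligosaccharyltransferase subunits DDOST (0.881) and RPN2 (0.878), and after subtracting group means the values were 0.700, 0.532 and 0.669. CAT had no close partner, with ACAD8, GALM and SCP2 at 0.652, 0.60 and 0.595, and neither had CCS, with UQCRC1, SDC1 and EGLN2 at 0.622, 0.594 and 0.588.

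GLRX stood at the other end. Its ratio correlated above 0.9 with 266 of the 5261 elements, led by RER1 (0.955), POLR1F (0.952) and COQ5 (0.952), and these values were 0.939, 0.940 and 0.961 within groups. For PRDX4 that count was 1, and for GPX3, CAT, CCS and PRXL2A it was 0. PRXL2A ran most like ARL6IP1, SNX24 and SH3BGRL (0.790, 0.787 and 0.780). Among the 6 genes themselves, GPX3 ran with PRDX4 and against CAT (r = -0.516), and after subtracting group means the values were 0.417 and -0.417. The remaining pairs had r between -0.377 and 0.379.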

How the data were processed

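Liver of 8 cows was profiled on 106 arrays of 2 colours, with 2 arrays of opposite dye orientation for each of 53 cow-days. The authors deposited, per spot, a log2 ratio of Cy5 over Cy3, read with GenePix 4.0 per the labels; the sources used here name no normalization or filter. Base 2 was read off the values, in which exact logs of simple ratios were more frequent in base 2 than nearby values. Array medians ran from -1.69 to 1.80. The dye of liver came from the titles, because other label text of 4 arrays names the opposite dye. Ratios were turned to liver over reference, the 2 spots of each element averaged, arrays centred on the median, and both orientations averaged and counted as 1 sample. Of 8208 elements, 8061 had at least 2 cows in each of 14 diet-by-day groups; none of the members' spots was missing. Spot intensities were not used here, so signal over background is unknown, and the number of cows limits the precision.

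Group means were fitted with limma 3.58.1 (statmod 1.5.0, R 4.3.3) with cow as a random block, because cow numbers in the labels pair samples over days (estimated correlation 0.0176). Contrasts were tested two-sided and p-values adjusted by Benjamini-Hochberg over all elements in each comparison, with a threshold of 0.05. Gene symbols came from the platform annotation, updated through a RefSeq gene table; 5598 elements had 1 symbol. Coordinates and sequences of the elements were not used here. Related transcripts may cross-hybridise with a cDNA element. Lists used 1 element a gene.

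The 6 genes, the lists and the rule for named genes (each of the 6, up to 4 genes of each list with the smallest p, any of the peroxide and thiol list, and the 3 most alike) were chosen with earlier results of these data known. Genes of the endoplasmic reticulum list given by name beyond 4, and the cell type markers given with values, were chosen after their values were seen. Alternatives covered centring and scaling, each orientation and spot alone, missing values, the cow block, array agreement, each cow left out, and fits of 2 days.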

Additional observations from a re-analysis of the deposited data

Results flagged for a closer look

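GLRX in ad libitum cows on day 28 had 1 cow apart from the rest, cow 7161 with a log2 ratio of 0.52, while the next highest was 0.0095. The gap made up 0.834 of the range of the group. This was 1 of 72 groups of 4 cows examined, and chance marks about 1 group in 20.

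In 2 of 36 combinations of gene and step, every cow of one diet moved up and every cow of the other moved down. GPX3 from day -65 to day -30 was higher in the 4 restricted cows and lower in the 3 ad libitum cows, and the ad libitum step minus the restricted step was -3.95 ± 1.37 (SE), which did not pass in limma (adjusted p = 0.981). Cow 6886 held the highest ad libitum value on day -65, 5.72. GLRX from day 14 to day 28 was higher in the restricted cows and lower in the ad libitum cows, with a difference of -0.96 ± 0.37 (SE) that did not pass (adjusted p = 0.191).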

How the results depend on the processing

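No called value of the 6 genes changed sign under any alternative. Among called genes of the other lists, checked under the 3 other scalings only, CP (to day -14) changed sign after scaling to a common spread, and SLC25A17 (to day -14) and KEAP1 (to days -14 and 28) without centring. GPX3 and PRDX4 kept the call over days in 21 of 21 alternatives, CAT in 20 of 21 (quantile normalization, adjusted p = 0.152), and the PRDX4 rise to day -14 in 23 of 23. From day -14 to day 1, where 3 of the 6 genes passed, 0 passed without centring, with liver in Cy3 alone, in the fit of the 2 days alone and without the 4 cow-days under an agreement of 0.4 (a setting chosen after seeing the data). There, 1 passed after scaling to a common spread and with spot 2 alone, and 0 to 3 with 1 cow left out. From day 1 to day 14, 0 passed in place of 1 in those same 4 settings. Between diets, day -14 gave 1 without centring and after scaling to a common spread, 0 with Cy3 alone and without cow-days under 0.6, and 0 to 4 with 1 cow left out. Day 1 gave 0 under no centring, common spread, Cy3 alone, Cy5 alone, spot 2 alone, the agreement covariate and the 0.4 filter, and 0 to 2 with 1 cow left out. Day 14 gave 0 with Cy5 alone and without cow-days under 0.6, and 0 to 2 with 1 cow left out. From day -30 to day -14, 2 passed without centring and with Cy3 alone, and 1 to 2 with 1 cow left out. From day 14 to day 28, 1 passed without centring, 3 after scaling and 1 after quantile normalization, and 0 to 1 with 1 cow left out. The diet by day test gave 0 to 2 with 1 cow left out. The cause of these changes was not tested.

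Without the replicate block, and with the block as a fixed term, the counts were 3 and 3 at calving, as with the random block; without it PRXL2A lost its call on day -14 (adjusted p = 0.0528), leaving 2. The block changed no other call of the 6 genes, and without it 20 elements in place of 64 passed the diet by day test. The filter at 0.6 removed 18 of 53 cow-days and left no ad libitum cow on day 1, so comparisons with day 1 and the F tests could not be fitted. On days -14 and 14 this filter left 1 ad libitum and 2 restricted cows. That is too few to tell whether the diet calls lost under it depend on array agreement. Without centring, the median of all elements shifted by -0.44 (to day 28) to 0.48 (to day -14) in the steps and by -0.47 (day -65) to 0.20 (day -30) between diets. On the steps to days -14 and 28, upward calls made up 96.6% in place of 58.3%, and 1.37% in place of 43.0%. Between diets on days -14 and 14 they made up 4.76% and 97.8%, in place of 15.5% and 76.0%. Over all elements, calls ranged from 1 to 31 for day -30 (9 in the reported fit), 1798 to 3461 for day -14 (2703), 0 to 96 for day 1 (32), 0 to 143 for day 14 (57), 208 to 2551 for day 28 (695) and 0 to 465 for day 49 (1). After scaling to a common spread 27 elements passed to day 49, 7.41% of them upward. For diets, calls over all elements ranged from 0 to 2 on day -65 (0), 0 to 1851 on day -14 (490), 0 to 1160 on day 1 (865), 224 to 1468 on day 14 (1230), and 0 to 4 on day 49 (0). They ranged from 1979 to 4762 over days (3496) and from 0 to 1035 for the diet by day test (64).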
